A study of Mus musculus with 24 samples.

Results

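The 10 genes described here encode plasma apolipoproteins and the transfer protein that loads lipid onto them: Apoa1, Apoa2, Apoa4, Apoa5, Apob, Apoc2, Apoc3, Apoe, Apof and Mttp. They were taken by symbol from a gene-level expression table of mouse liver, in which they are 10 of 34945 named genes. RNA was sequenced as polyadenylated, strand-marked libraries from 24 liver samples in 8 groups of 3. Hepatocyte knockouts made with Albumin-Cre were compared with WT livers, which carry floxed Foxo1 and Ppara alleles and no stated Cre. LFPKO livers were labelled as lacking both the transcription factor FoxO1 and the nuclear receptor PPARα, LFKO livers as lacking FoxO1, and LPKO livers as lacking PPARα. Each genotype was sampled after 3 weeks on a high-fat diet (HFD) or a regular diet (RD), and all mice had fasted for 4 h. A difference between any knockout and WT cannot be told apart from an effect of Cre itself. Age and sex of the mice are not given in the labels, and the replicate numbers are not stated to be separate mice, so the p-values given rest on sample-to-sample spread that may be technical.

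The liver exports triglyceride in very-low-density lipoprotein (VLDL), a particle built on a single molecule of apolipoprotein B. Microsomal triglyceride transfer protein, the product of Mttp, adds lipid to apolipoprotein B while it is being made, and smaller exchangeable apolipoproteins then join the surface of VLDL or of high-density lipoprotein (HDL). On the surface they steer the fate of the particle, as activators or inhibitors of lipoprotein lipase and as ligands for hepatic receptors. In liver, FoxO1 is known from mouse work as an insulin-restrained activator of Mttp and Apoc3, and PPARα as the fasting- and fat-activated regulator of fatty acid oxidation that also acts on apolipoprotein genes.

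Expression is in TPM, the relative abundance of a gene's transcripts within a library, which is corrected for transcript length and so allows levels of different genes to be compared. Fold changes are log2 differences of group means of log2(TPM + 1), written log2FC ± SE, and a gene was called changed at a limma adjusted p under 0.05 among 10551 tested genes. All 10 genes were tested. The 24 libraries held 9749 to 10937 genes at 1 TPM or more, libraries of a group correlated at 0.970 to 0.991 across tested genes, and sequencing depth is unknown. Foxo1 was at most 0.484 TPM in the 12 libraries labelled LFPKO or LFKO and at least 4.06 TPM in the other 12. Ppara was at 57.5 to 87.3 TPM in the libraries labelled LPKO or LFPKO and at 37.1 to 68.8 TPM in the others, so the whole-gene value does not check the PPARα label. Hepatocyte markers were abundant in every library, with a sum of 39913 to 93611 TPM over 7 markers. Mup genes, whose products are secreted into urine, took 24.2% and 25.1% of TPM in HFD LFPKO and HFD WT livers but 5.98% in RD LFKO livers. TPM is a share of the library, so the total left for all other genes was smaller where the Mup share was larger. How far each gene moved with it was not tested. Results are therefore also given with a median-of-ratios scaling, or after removal of Mup and mitochondrial-genome (mt) transcripts, where this changed a printed call or count of calls. HFD LFKO replicate 1 stood apart from the other HFD LFKO libraries in Mup share (17.7%, against 10.9% and 6.50%), and without it the genes called in HFD LFKO against HFD WT numbered 3501 and not 1420. HFD LPKO replicate 3 stood apart from its group in the same measure (26.1%, against 13.4% and 12.5%). Without it, 889 and not 499 genes were called in HFD LPKO against HFD WT, and 716 and not 1910 in HFD LPKO against RD LPKO livers. RD WT replicate 1 differed from its group in Mup share (11.7%, against 7.99% and 8.61%). It also held fewer genes at 1 TPM or more (10285, against 10937 and 10820).

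Promoter windows were read for the genes that the results turn on most, from 250 bases before to 50 bases after the annotated start, 5′ to 3′, from RefSeq on GRCm38.p6. Of the 10 genes, 8 had a window. The windows are shown for Apoa4, which differed most between genotypes, and for Apoa2 and Apoc2, which differed most between diets in WT livers. Capitals mark matches, on either strand, to the forkhead core TGTTTAC, the direct repeat AGGNCANAGGNCA bound by nuclear receptor dimers (DR1), the nuclear receptor half-site AGGTCA, the TATA box TATAAA or the cyclic-AMP element half-site TGACG.
Apoa4, chr9:46240594-46240893, plus strand: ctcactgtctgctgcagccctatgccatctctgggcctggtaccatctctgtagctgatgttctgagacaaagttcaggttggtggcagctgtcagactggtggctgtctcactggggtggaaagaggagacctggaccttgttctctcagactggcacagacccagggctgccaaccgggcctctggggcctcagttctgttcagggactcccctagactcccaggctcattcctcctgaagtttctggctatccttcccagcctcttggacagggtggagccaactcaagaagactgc
Apoa2, chr1:171224804-171225103, plus strand: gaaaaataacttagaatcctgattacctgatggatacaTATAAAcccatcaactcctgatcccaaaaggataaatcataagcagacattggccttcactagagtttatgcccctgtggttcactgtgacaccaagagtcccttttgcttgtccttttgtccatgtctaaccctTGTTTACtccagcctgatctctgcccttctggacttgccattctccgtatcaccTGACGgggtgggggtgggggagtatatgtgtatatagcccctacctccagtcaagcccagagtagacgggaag
Apoc2, chr7:19677892-19678191, minus strand: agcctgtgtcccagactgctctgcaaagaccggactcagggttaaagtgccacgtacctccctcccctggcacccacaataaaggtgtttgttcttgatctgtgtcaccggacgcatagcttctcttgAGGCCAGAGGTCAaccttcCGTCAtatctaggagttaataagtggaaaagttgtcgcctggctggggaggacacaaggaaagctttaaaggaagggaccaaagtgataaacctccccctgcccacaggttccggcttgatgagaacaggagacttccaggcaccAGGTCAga
With the start counted as 0, the Apoa2 window holds the forkhead core at -77, a TATA box at -212 and TGACG at -23. A second annotated start of Apoa2 has its window at chr1:171221314-171221613, not shown, which holds a half-site on the other strand at -238 and none of the other motifs. The Apoc2 window holds a DR1 match, AGGCCAGAGGTCA, at -122, which overlaps a half-site at -115, a second half-site at 42 and TGACG on the other strand at -103. None of these letters is in the Apoa4 window. The annotation used for the gene positions given below starts Apoa4 at base 46240696, inside this window and upstream of its counted start. By that start, part of the upstream stretch shown is transcribed, and bases further upstream were not read. Among 32851 windows of all genes, 3.65% hold the forkhead core, 0.381% the DR1, 16.3% the half-site, 13.6% the TATA box and 20.8% TGACG. A match is a run of letters and not a measured binding site.

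Apoe, Apoa2 and Apoa1 were the most abundant of the 10 genes, with means over all libraries of 18565, 14714 and 9935 TPM. Apoc3 averaged 3069 TPM, Apoa5 881 TPM, Apob 805 TPM, Apof 528 TPM, Apoc2 339 TPM, Apoa4 209 TPM and Mttp 96.9 TPM. Together they held 4.17% to 5.56% of TPM as group means. Apoa4 spanned 3.76 log2 units between its highest and lowest group means, while each of the others spanned 1.06 or less, and Mttp spanned the least, at 0.34. In the order of group means, 7 of 7 neighbour pairs of groups overlapped for Apoa2, Apoa5, Apob, Apoc2, Apoe and Mttp. For Apoa1, Apoc3 and Apof 6 of 7 did. The pairs apart were RD LFPKO above HFD LFKO for Apoa1, RD WT above HFD LFKO for Apoc3 and HFD LPKO above HFD WT for Apof. For Apoa4, 2 neighbour pairs did not overlap, RD LPKO above HFD LFKO and RD LFKO above HFD WT.

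**Figure D1:**
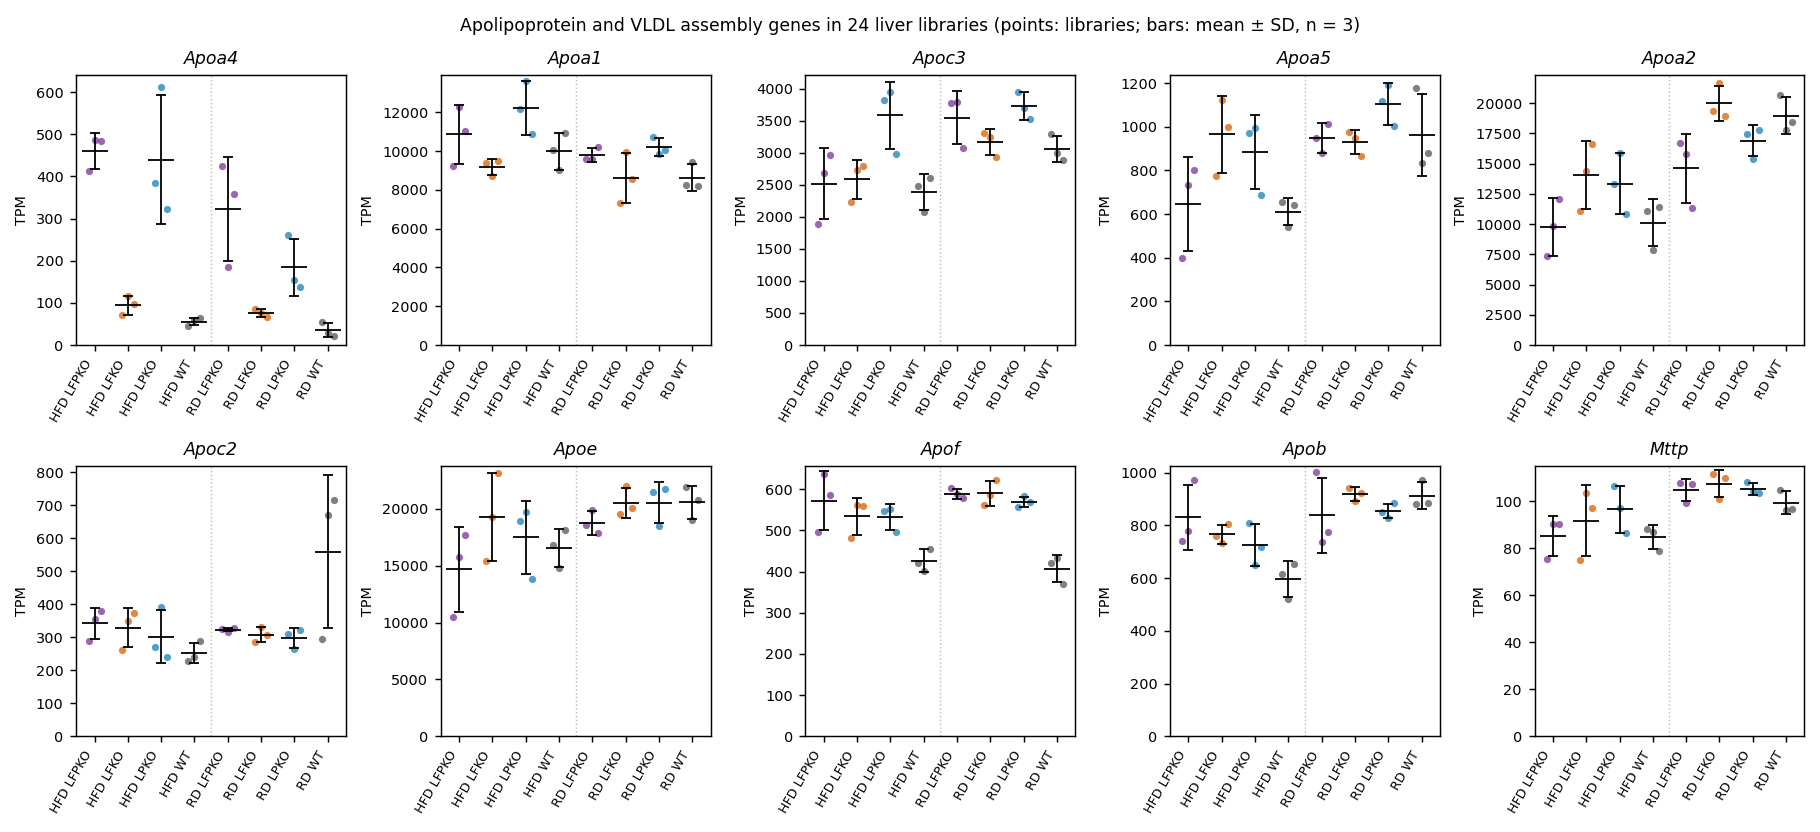
TPM of the 10 genes in every library, with a linear axis from 0 for each gene. Points are libraries and bars are mean ± SD (n = 3). Apoa4 is high in the LPKO and LFPKO groups of both diets, Apof is lowest in both WT groups, and RD WT holds a low and a pair of high Apoc2 libraries.

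The first comparison asked what each knockout did to these genes relative to WT livers on the same diet. Apoa4, a lipid-binding apolipoprotein of chylomicrons and VLDL that is made mainly by the intestine and is inducible in mouse liver, rose in LFPKO and LPKO livers on both diets. Apof, a lipid transfer inhibitor carried on lipoproteins, rose in all 3 knockouts on RD. All calls among the 10 genes were higher. They numbered 2 in RD LFPKO livers, where 7.45% of all tested genes were called and 4% were called higher, 1 in RD LFKO livers (1.67% and 1.07%) and 2 in RD LPKO livers (5.85% and 3.52%). On HFD they numbered 3 in LFPKO livers (3.09% and 1.62%), 2 in LFKO livers (13.5% and 12.7%) and 2 in LPKO livers (4.73% and 3.6%). The 6 comparisons share the WT libraries of their diet. Counted by libraries alone, 3 genes had all RD LFPKO libraries above all RD WT libraries (16.9% of all tested genes had), and Apoa2 had them all below (12.4%). The genes above WT in this sense were 2 in RD LFKO (19.4%), 4 in RD LPKO (19.2%), 4 in HFD LFPKO (11.1%), 4 in HFD LFKO (24.6%) and 4 in HFD LPKO livers (16.3%).

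**Figure D2:**
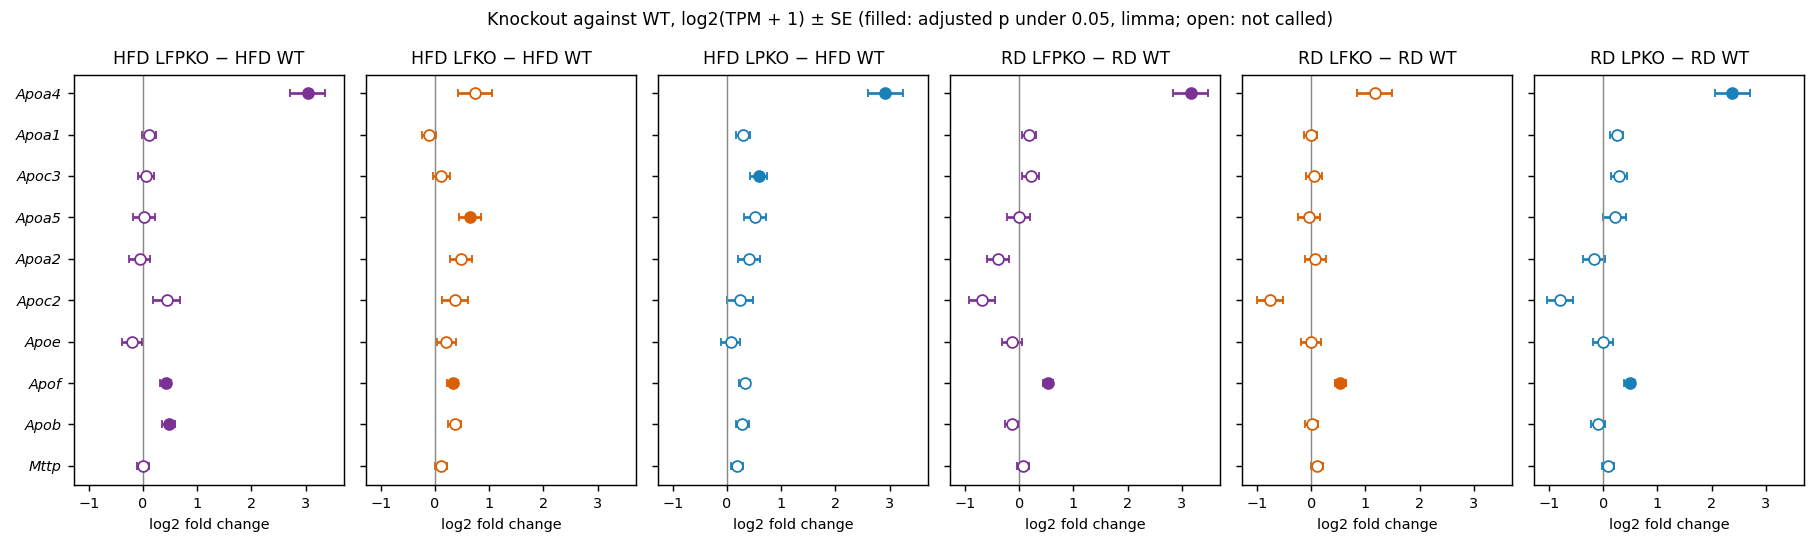
log2FC ± SE of each gene in each knockout against WT of the same diet, with filled points for limma adjusted p under 0.05. Apoa4 lies between 2.38 and 3.16 in LFPKO and LPKO livers and at 1.17 and 0.74 in LFKO livers, and the other genes lie between -0.80 and 0.65.

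Apoa4 was at 424, 185 and 359 TPM in RD LFPKO livers, at 84.5, 76.6 and 67.0 TPM in RD LFKO livers and at 261, 155 and 137 TPM in RD LPKO livers, against 55.1, 29.0 and 22.5 TPM in RD WT livers. It was at 412, 486 and 485 TPM in HFD LFPKO livers, at 70.9, 116 and 96.8 TPM in HFD LFKO livers and at 384, 612 and 324 TPM in HFD LPKO livers, against 45.3, 58.6 and 63.3 TPM in HFD WT livers. All 12 LPKO and LFPKO libraries lay above all 12 others, and the LFKO libraries lay between them and WT on either diet. Against WT, log2FC was 3.16 ± 0.32 in RD LFPKO livers (limma adjusted p 2.95e-06) and 2.38 ± 0.32 in RD LPKO livers (limma adjusted p 9.48e-05). On HFD it was 3.04 ± 0.32 in LFPKO livers (limma adjusted p 5.84e-06) and 2.92 ± 0.32 in LPKO livers (limma adjusted p 7.26e-06). These 4 calls were kept under all 13 alternatives run for each, both scalings included.

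In LFKO livers the Apoa4 difference did not pass the test, with log2FC of 1.17 ± 0.32 on RD (limma adjusted p 0.0712) and 0.74 ± 0.32 on HFD (limma adjusted p 0.126), although the 3 LFKO libraries lay above the 3 WT libraries on each diet. RD WT replicate 1 had the highest Apoa4 value of its group, and without it the RD LFKO value was 1.53 with a limma adjusted p of 0.0179. The split of 12 LPKO and LFPKO libraries from 12 others was looked at after the values were seen. Of all tested genes, 0.123% had every LPKO and LFPKO library above every other library, as Apoa4 had, and Apoa4 was also separated in this way under both scalings. Antisense transcripts are annotated opposite Apoa4, the longest overlap covering 34.9% of its exonic length, and these were not analysed here.

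Intestinal enterocyte markers were read because enterocytes express Apoa4. Of 8 markers, Alpi and Cdx2 were at 0 in all 24 libraries, and Sis, Lct, Cdh17 and Muc13 were at most 0.0957 TPM. Vil1 was at 0.0679 to 1.47 TPM. Fabp2, which liver may also express, made up nearly all of the sum, which was 33.8 to 56.1 TPM in RD LFPKO, 44.0 to 52.1 TPM in RD LFKO, 34.0 to 43.0 TPM in RD LPKO, 43.3 to 73.2 TPM in HFD LFPKO, 75.4 to 94.2 TPM in HFD LFKO and 70.9 to 99.2 TPM in HFD LPKO livers, against 46.6 to 49.3 TPM in RD WT and 38.3 to 57.6 TPM in HFD WT livers. Fabp2, the 1 marker tested, was called higher by limma in HFD LFKO (0.79) and HFD LPKO livers (0.78) against WT. It was also called higher on HFD than on RD in LFKO (0.85) and LPKO livers (1.14). It was not called against WT in LFPKO livers on either diet or in RD LFKO or RD LPKO livers. Its part in the Apoa4 values was not tested.

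Apof was at 602, 588 and 578 TPM in RD LFPKO livers, at 563, 586 and 622 TPM in RD LFKO livers and at 557, 583 and 568 TPM in RD LPKO livers, against 420, 432 and 370 TPM in RD WT livers. It was at 496, 636 and 585 TPM in HFD LFPKO livers, at 482, 561 and 559 TPM in HFD LFKO livers and at 547, 553 and 497 TPM in HFD LPKO livers, against 421, 401 and 456 TPM in HFD WT livers. Every one of the 18 knockout libraries lay above the 6 WT libraries, a split looked at after the values were seen, which 0.0663% of all tested genes shared. Apoa4 also had this separation on the deposited scale, and under either scaling 2 WT libraries reached the lowest knockout library for each of the 2 genes. On RD, log2FC was 0.53 ± 0.10 in LFPKO (limma adjusted p 0.00145), 0.54 ± 0.10 in LFKO (limma adjusted p 0.00487) and 0.48 ± 0.10 in LPKO livers (limma adjusted p 0.00412), and these calls were kept under all 13 alternatives run for each.

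On HFD, Apof was called in LFPKO livers (0.42 ± 0.10, limma adjusted p 0.0175) and LFKO livers (0.32 ± 0.10, limma adjusted p 0.0357) but not in LPKO livers (0.32 ± 0.10, limma adjusted p 0.0624). The HFD LFKO value was 0.07 after median-of-ratios scaling and 0.03 without Mup and mt transcripts. It was also lost without HFD WT replicate 1 or 2 or HFD LFKO replicate 2 or 3 (limma adjusted p 0.0684, 0.178, 0.149 and 0.152 in that order). The HFD LFPKO call was lost without HFD WT replicate 1 or 2 or HFD LFPKO replicate 2 or 3 (limma adjusted p 0.0667, 0.0921, 0.132 and 0.0669). Fitted on the compared groups alone, Apof was called in neither HFD LFPKO nor HFD LFKO livers (limma adjusted p 0.326 and 0.226), and the HFD LPKO value passed without HFD LPKO replicate 3 (0.37, limma adjusted p 0.0400).

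Apoa5, Apoc3 and Apob, genes of triglyceride metabolism, were each called in 1 knockout on HFD. Apoa5, which enables lipoprotein lipase to clear triglyceride, was at 775, 1123 and 1001 TPM in HFD LFKO livers, against 654, 540 and 641 TPM in HFD WT livers (0.65 ± 0.21, limma adjusted p 0.0444). Apoc3, an inhibitor of lipoprotein lipase and of remnant uptake, was at 3829, 3940 and 2980 TPM in HFD LPKO livers, against 2479, 2071 and 2600 TPM in HFD WT livers (0.58 ± 0.15, limma adjusted p 0.0303). Apob, the structural protein of VLDL, was at 742, 778 and 972 TPM in HFD LFPKO livers, against 617, 522 and 653 TPM in HFD WT livers (0.47 ± 0.12, limma adjusted p 0.0377). In each case the 3 knockout libraries lay above the 3 WT libraries.

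None of the 3 calls held in every alternative. The Apoa5 value was 0.39 after median-of-ratios scaling and 0.36 without Mup and mt transcripts (limma adjusted p 0.250 and 0.231), and the call was lost without HFD WT replicate 1, 2 or 3 or HFD LFKO replicate 2 or 3 (limma adjusted p 0.0588, 0.205, 0.0641, 0.189 and 0.156 in that order). The Apoc3 call was lost without HFD WT replicate 1 or 2 or HFD LPKO replicate 1 or 2 (limma adjusted p 0.0513, 0.177, 0.129 and 0.129). The Apob value was 0.38 after median-of-ratios scaling (limma adjusted p 0.0777), and the call was lost without HFD WT replicate 1 or 2 or HFD LFPKO replicate 2 or 3 (limma adjusted p 0.0784, 0.212, 0.0669 and 0.207). All 3 calls were also lost with no filter on low values (limma adjusted p 0.0937 for Apoa5, 0.0788 for Apoc3 and 0.0630 for Apob) and when just the groups compared were fitted (limma adjusted p 0.116, 0.180 and 0.327). In HFD LFKO livers, Apob differed by 0.36 (limma adjusted p 0.0550), and passed with a filter of 5 TPM (limma adjusted p 0.0444) or without HFD WT replicate 3 (limma adjusted p 0.0480), while Apoa2 passed there without HFD LFKO replicate 1 (0.63, limma adjusted p 0.0313).

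Mttp, the transfer protein of VLDL assembly, did not pass the test in any of the 19 comparisons. In HFD LFPKO against RD LFPKO livers it differed by -0.30 (limma adjusted p 0.0512), and passed with a filter of 5 TPM (limma adjusted p 0.0422) or without HFD LFPKO replicate 3 (limma adjusted p 0.0477). It was at 108, 99.3 and 107 TPM in RD LFPKO livers, at 111, 101 and 110 TPM in RD LFKO livers and at 108, 104 and 103 TPM in RD LPKO livers, against 105, 96.4 and 96.8 TPM in RD WT livers. The libraries of all RD groups overlapped, and the RD LFKO difference was 0.11 ± 0.11 (95% interval -0.12 to 0.34, limma adjusted p 0.682). Apoc3, like Mttp a gene that FoxO1 is known to activate in mouse liver, differed by 0.05 ± 0.15 in RD LFKO livers (95% interval -0.27 to 0.37, limma adjusted p 0.915) and by 0.12 ± 0.15 in HFD LFKO livers (limma adjusted p 0.626).

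Apoa1 and Apoe, the main apolipoprotein of HDL and the main receptor ligand on remnants, also passed in none of the 19 comparisons. Apoa1 was at 9571, 9565 and 10222 TPM in RD LFPKO livers and at 10731, 9850.2 and 10065 TPM in RD LPKO livers, against 8254, 9412 and 8202 TPM in RD WT livers. The libraries of both knockouts lay above WT, with log2FC of 0.18 ± 0.13 (limma adjusted p 0.435) and 0.25 ± 0.13 (limma adjusted p 0.309). Apoe differed from WT by -0.21 to 0.21 over the 6 knockout comparisons, and the libraries overlapped with WT in each. In HFD LFKO livers, Apoa1 differed by -0.12, and was called lower only after removal of Mup and mt transcripts (-0.41, limma adjusted p 0.0244). Under that removal Apoa2 was called lower in RD LFPKO livers (-0.41, limma adjusted p 0.0492), where it was at -0.39 on the deposited scale (limma adjusted p 0.257). Apoe was called lower in HFD LFPKO against RD LFPKO livers without HFD LFPKO replicate 3 (-0.54, limma adjusted p 0.0374).

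Apoc2, the activator of lipoprotein lipase, was uneven in WT livers. It was at 324, 318 and 327 TPM in RD LFPKO livers, at 286, 331 and 308 TPM in RD LFKO livers and at 311, 264 and 322 TPM in RD LPKO livers, against 294, 670 and 716 TPM in RD WT livers. RD WT replicate 1 lay among the knockout libraries, and the other RD WT libraries lay above all others of the series. The RD differences of -0.69 ± 0.24, -0.76 ± 0.24 and -0.80 ± 0.24 in LFPKO, LFKO and LPKO livers were not called (limma adjusted p 0.0931, 0.125 and 0.0547). They passed without RD WT replicate 1, at -1.10, -1.17 and -1.22 (limma adjusted p 0.00106, 0.00144 and 5.35e-04), after median-of-ratios scaling (limma adjusted p 0.0285, 0.0322 and 0.0101) and without Mup and mt transcripts (limma adjusted p 0.0386, 0.0304 and 0.0185).

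The neighbouring Apoc4, another small apolipoprotein gene, ran the other way in RD WT livers, at 1300, 1048 and 1013 TPM, so that the sum of both genes was 1594, 1718 and 1729 TPM. The sum was 1649, 1697 and 1310 TPM in RD LFPKO livers, 1644, 1905 and 1615 TPM in RD LFKO livers and 1778, 1626 and 1752 TPM in RD LPKO livers, which overlapped the RD WT sums. Of the 813 exonic bases of Apoc2, 79.5% are shared with Gm44805, a protein-coding gene annotated on the same strand and listed at 17.0 to 47.9 TPM, so the division of reads between Apoc2 and Gm44805 is uncertain. In RD WT livers Gm44805 was at 28.2, 24.5 and 22.3 TPM. Apoc4 is not annotated as overlapping Apoc2, and whether reads were exchanged between Apoc2 and Apoc4 was not tested.

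**Figure D3:**
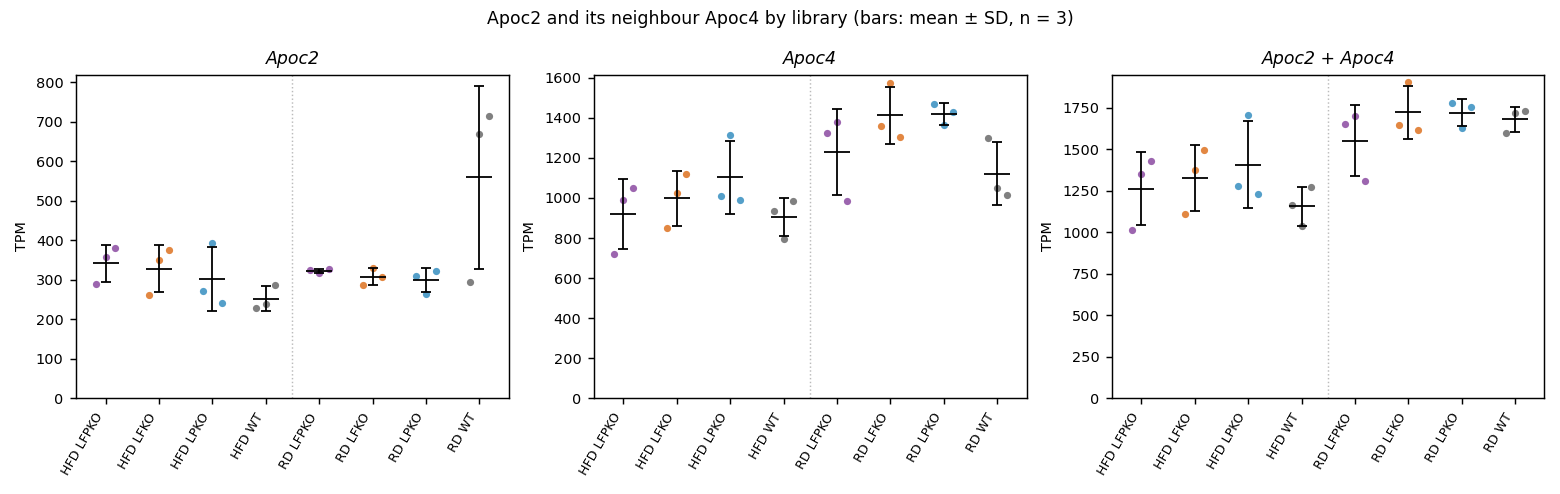
TPM of Apoc2, of Apoc4 and of their sum in each library, with mean ± SD (n = 3). In RD WT the Apoc2 libraries are at 294, 670 and 716 TPM and the sums at 1594, 1718 and 1729 TPM. Apoc4 makes up the larger part of each sum, so a gap in Apoc2 shows less in it.

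The second comparison asked how LFPKO livers differed from livers lacking 1 of the factors. Apoa4 rose in LFPKO against LFKO livers, by 1.99 ± 0.32 on RD (limma adjusted p 4.48e-04) and by 2.30 ± 0.32 on HFD (limma adjusted p 6.29e-05), and it was the 1 gene of the 10 called on either diet, where 5.08% and 10.6% of all tested genes were called and 1.95% and 1.85% were called higher. The Apoa4 libraries of LFPKO lay above those of LFKO livers on either diet (12.7% of all tested genes did on RD and 3.87% on HFD), Apoa2 lay below on RD (17.3%), both genotypes were made with Albumin-Cre, and the calls were kept under all 13 alternatives run for each. After median-of-ratios scaling Apoa1 was called too in HFD LFPKO against HFD LFKO livers (0.39, limma adjusted p 0.0438). Without Mup and mt transcripts Apoa1 (0.46, limma adjusted p 0.00357) and Apof (0.33, limma adjusted p 0.00315) were called there. Without HFD LFKO replicate 1, Apoa2, Apoa5 and Apoe were called lower in that comparison (-0.70, -0.78 and -0.56, limma adjusted p 0.0256, 0.0194 and 0.0391). Apoa5 was also called with a filter of 5 TPM (limma adjusted p 0.0479) and without HFD LFPKO replicate 2 (limma adjusted p 0.0469), and Apoa2 and Apoa5 without HFD LFPKO replicate 3 (limma adjusted p 0.0331 and 0.0190).

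Against LPKO livers, none of the 10 genes was called in LFPKO livers by limma, on RD (0.123% of tested genes called) or on HFD (0.351%, which is 37 genes, against 283 without HFD LPKO replicate 3), and 1 and 3 of the 10 genes had an unadjusted p under 0.05. Apoa4 differed by 0.78 ± 0.32 on RD (limma adjusted p 0.795) and by 0.12 ± 0.32 on HFD (95% interval -0.56 to 0.79, limma adjusted p 0.948), and the libraries overlapped. Apoc3 differed most on HFD, at 1895, 2678 and 2964 TPM in HFD LFPKO livers, against 3829, 3940 and 2980 TPM in HFD LPKO livers (-0.53 ± 0.15, limma adjusted p 0.160). The HFD LFPKO libraries lay below the HFD LPKO libraries (5.88% of all tested genes did), and the difference passed without HFD LPKO replicate 3 (-0.65, limma adjusted p 0.0350) and without Mup and mt transcripts (-0.41, limma adjusted p 0.0314).

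The additivity of both deletions was read as LFPKO minus LFKO minus LPKO plus WT on the log2 scale. On RD none of the 10 genes was called by limma (0.256% of tested genes), and 2 had an unadjusted p under 0.05, Apoc2 at 0.87 ± 0.34 and Apof at -0.49 ± 0.14 (limma adjusted p 0.573 and 0.272). Apoc2 passed without RD WT replicate 1 (1.28, limma adjusted p 0.0256). Apof was 0.48 to 0.54 log2 units above WT in each RD knockout, with 589 ± 12.1 TPM in RD LFPKO, 590 ± 30.0 TPM in RD LFKO and 569 ± 12.9 TPM in RD LPKO livers, against 407 ± 33.1 TPM in RD WT livers (SD, n = 3). On HFD, 11.2% of tested genes departed from additivity, and 10.5% of tested genes did so with a negative sign, among them Apoa5 (-1.15 ± 0.29, limma adjusted p 0.0186) and Apoa2, the second protein of HDL (-0.94 ± 0.28, limma adjusted p 0.0370).

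Apoa5 averaged 645 ± 215 TPM in HFD LFPKO, 966 ± 177 TPM in HFD LFKO and 884 ± 171 TPM in HFD LPKO livers, against 611 ± 62.4 TPM in HFD WT livers. Apoa2 averaged 9748 ± 2393 TPM in HFD LFPKO, 14058 ± 2791 TPM in HFD LFKO and 13345 ± 2493 TPM in HFD LPKO livers, against 10123 ± 1949 TPM in HFD WT livers (SD, n = 3). Both genes were thus higher on average in either single knockout than in LFPKO and WT livers. For Apoa2 the libraries of each single knockout overlapped those of HFD WT livers. For Apoa5 they lay above WT, as 24.6% of all tested genes did in HFD LFKO and 16.3% in HFD LPKO livers. For both genes the libraries of each single knockout overlapped those of HFD LFPKO livers. Neither departure was called after median-of-ratios scaling (limma adjusted p 0.0559 for Apoa5 and 0.0973 for Apoa2) or without Mup and mt transcripts (limma adjusted p 0.0560 and 0.0938). Both were lost without HFD WT replicate 2, HFD LFKO replicate 2 or 3 or HFD LPKO replicate 1 or 2 (limma adjusted p 0.0523 to 0.0614 for Apoa5 and 0.0778 to 0.125 for Apoa2), and Apoa2 also without HFD LFPKO replicate 1 (limma adjusted p 0.108) or with no filter (limma adjusted p 0.142). When just the groups compared were fitted, neither was called (limma adjusted p 0.125 for Apoa5 and 0.162 for Apoa2). Apoc3 departed by -0.64 (limma adjusted p 0.0569), and passed with a filter of 5 TPM (limma adjusted p 0.0429) or without HFD LFKO replicate 1, HFD LPKO replicate 3 or HFD LFPKO replicate 3 (limma adjusted p 0.0224, 0.0189 and 0.0245), and Mttp passed without HFD LFKO replicate 1 (-0.42, limma adjusted p 0.0317). Of 5 tested stellate cell markers, 2 departed with a negative sign as well, and their part in these values was not tested.

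The third comparison asked what 3 weeks of HFD did within a genotype. In WT livers, Apoa2, Apoa5, Apob and Apoc2 fell and no gene of the 10 rose, where 30.8% of all tested genes were called and 29.8% were called lower. Apoa2 was at 11101, 7879 and 11389 TPM in HFD WT livers, against 20700.3, 17767 and 18449.9 TPM in RD WT livers (-0.92 ± 0.20, limma adjusted p 0.00359). Apob was at 617, 522 and 653 TPM in HFD WT livers, against 881, 971 and 885 TPM in RD WT livers (-0.61 ± 0.12, limma adjusted p 0.00237). Both genes had every HFD WT library below every RD WT library, as had 7 of the 10 genes and 46.4% of all tested genes. Markers of other cell types were also read, on the deposited scale alone. Stellate cell markers summed to 41.1 to 59.6 TPM in HFD WT livers, against 100.4 to 155 TPM in RD WT livers, and 4 of 5 tested were called lower, with a median of -0.99. Kupffer cell markers, which mark liver macrophages, summed to 80.3 to 179.6 TPM in HFD WT livers, against 156 to 251 TPM in RD WT livers. These ranges overlapped, and 1 of 10 was called lower, with a median of -0.73. Of 4 endothelial, 1 cholangiocyte and 3 erythroid markers tested, 0 were called by limma, with medians of -0.42, -0.09 and 0.01. Their part in the diet differences was not tested, and in whole liver fewer cells of a type and less RNA per cell cannot be told apart.

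Apoa5 fell by 0.64 ± 0.21 on the log2 scale in HFD WT livers (limma adjusted p 0.0277), and the call was lost without RD WT replicate 1 or 3 or HFD WT replicate 2 (limma adjusted p 0.0903, 0.0555 and 0.126) and with no filter (limma adjusted p 0.0588). Apoc2 fell by 1.05 ± 0.24 (limma adjusted p 0.00530), with the uneven RD WT libraries given above. The median of all tested genes was -0.29 in this comparison, and it was 0.02 after median-of-ratios scaling and 0.01 without Mup and mt transcripts.

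Relative to these shifted medians, the genes parted. Apoa2 was called lower under both scalings (-0.56, limma adjusted p 0.0364 and 0.0143), while Apob was at -0.25 under both (limma adjusted p 0.224 and 0.201) and Apoa5 at -0.28 (limma adjusted p 0.385 and 0.324). Apoc2 was at -0.68 under both, with limma adjusted p of 0.0374 after median-of-ratios scaling and 0.0558 without Mup and mt transcripts. Apoa1 and Apof, which were at 0.21 and 0.07 on the deposited scale, were called higher under both scalings, at 0.58 (limma adjusted p 0.00658 and 0.00123) and 0.43 (limma adjusted p 0.00578 and 5.82e-04). The 10 genes thus split into 0 higher and 4 lower on the deposited scale, 2 higher and 2 lower after median-of-ratios scaling, and 3 higher and 1 lower without Mup and mt transcripts, where Apoa4 was called as well (1.09, limma adjusted p 0.0408). The deposited-scale value of Apoa4 was 0.72 ± 0.32 (limma adjusted p 0.0884), and 1.08 without RD WT replicate 1 (limma adjusted p 0.0193).

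**Figure D4:**
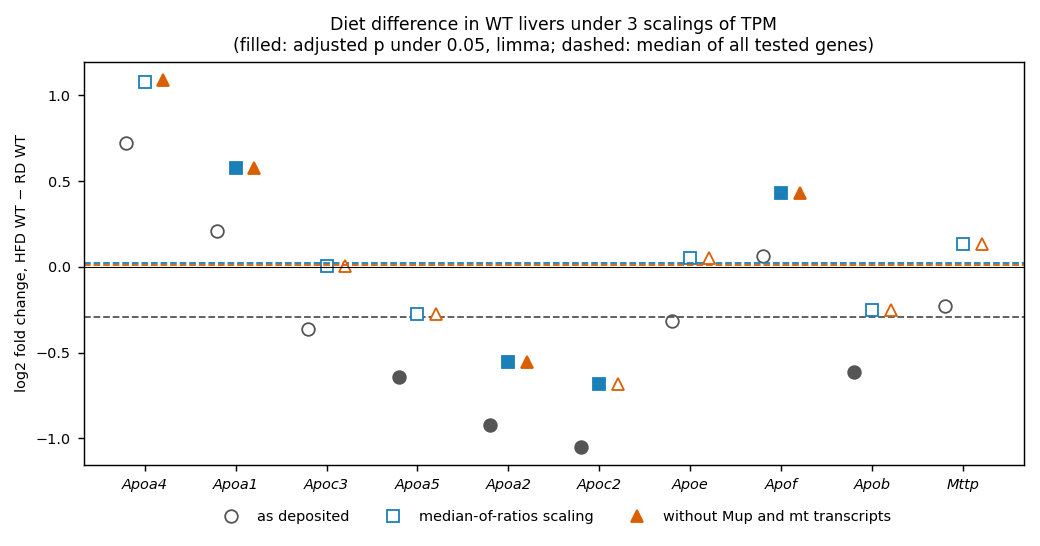
log2FC of HFD WT against RD WT for the 10 genes under 3 scalings of TPM, filled for limma adjusted p under 0.05, with a dashed line at the median of all tested genes under each scaling. Apoa2 is below its median under all 3, at -0.92, -0.56 and -0.56, and Apoa1 is above it under all 3, at 0.21, 0.58 and 0.58.

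In LPKO livers the diet moved Apoa4 upward. It was at 384, 612 and 324 TPM in HFD LPKO livers, against 261, 155 and 137 TPM in RD LPKO livers (1.26 ± 0.32, limma adjusted p 0.0134), with every HFD library above every RD library (2.49% of all tested genes), where 18.1% of all tested genes were called and 0.777% were called higher. The call was lost without RD LPKO replicate 3 (1.07, limma adjusted p 0.0663) or HFD LPKO replicate 2 (0.99, limma adjusted p 0.0553), and was kept under both scalings, under which Apoa1 was called higher as well (0.51 and 0.47, limma adjusted p 0.0165 and 0.00727). In LFPKO livers Apoa4 differed by 0.59 ± 0.32 between HFD and RD (limma adjusted p 0.180), and in LFKO livers by 0.29 ± 0.32 (limma adjusted p 0.629). None of the 10 genes was called by limma in HFD LFKO against RD LFKO livers (9.45% of tested genes called), and 3 had an unadjusted p under 0.05. Every HFD library lay below every RD library for 4 of the 10 genes in LFPKO livers (38% of all tested genes), 4 in LFKO livers (23.6%) and 3 in LPKO livers (39.8%).

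In LFPKO livers, Apoa2, Apoa5 and Apoc3 were called lower on HFD, by 0.59 ± 0.20, 0.61 ± 0.21 and 0.52 ± 0.15 log2 units (limma adjusted p 0.0332, 0.0345 and 0.0176), where 26.3% of all tested genes were called and 24.9% were called lower. When just the groups compared were fitted none of the 3 was called (limma adjusted p 0.140, 0.142 and 0.125), and with no filter Apoa2 and Apoa5 were not (limma adjusted p 0.140 and 0.0790). After median-of-ratios scaling all 3 calls were lost (limma adjusted p 0.173, 0.203 and 0.167) and Apoa1 was called higher (0.40, limma adjusted p 0.0342). Without Mup and mt transcripts 0 were called lower and 2 higher, Apoa1 (0.46, limma adjusted p 0.00447) and Apof (0.27, limma adjusted p 0.0133). HFD LFPKO replicate 1 had the lowest value of its group for each of these 3 genes, and without it they differed by -0.40, -0.30 and -0.33 (limma adjusted p 0.204, 0.271 and 0.138). The Apoa2 call was also lost without RD LFPKO replicate 1 or 2 or HFD LFPKO replicate 2 (limma adjusted p 0.136, 0.108 and 0.0547). The Apoa5 call was also lost without RD LFPKO replicate 1, 2 or 3 (limma adjusted p 0.0825, 0.0536 and 0.0941), and the Apoc3 call without RD LFPKO replicate 1 or 2 (limma adjusted p 0.0704 and 0.0656).

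Whether a knockout effect differed between the diets was tested as an interaction. None of the 10 genes was called by limma for LFPKO (0.0284% of tested genes), LFKO (0.00948%) or LPKO (0.171%), and 2 genes had an unadjusted p under 0.05 in each. Apoc2 came closest in LFKO, at 1.13 ± 0.34 (limma adjusted p 0.237). Without RD WT replicate 1, Apoc2 was called in all 3, at 1.53, 1.54 and 1.45 for LFPKO, LFKO and LPKO (limma adjusted p 0.00797, 0.00771 and 0.00923). The interaction of Apoa4 was -0.13 ± 0.46 for LFPKO, -0.43 ± 0.46 for LFKO and 0.54 ± 0.46 for LPKO (limma adjusted p 0.979, 0.691 and 0.852).

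Apoa1, Apoc3, Apoa4 and Apoa5 lie within 43340 bases of each other on chromosome 9, and Apoc2 and Apoe within 27610 bases on chromosome 7 (GRCm38). Apoa4 starts 5059 bases from Apoc3, yet in RD LFPKO livers its log2FC against WT was 3.16 beside 0.21 for Apoc3, 0.18 for Apoa1 and -0.01 for Apoa5. Over the 8 group means, Pearson's r of Apoa4 was 0.79 with Apoa1, 0.29 with Apoc3 and -0.11 with Apoa5, as a description. The group means of Apoa2 and Apoe followed each other (r 0.94), and so did the deviations of the 24 libraries from their group means (r 0.88). Such deviations share the library scale: those of Apoa2 and Apoe correlated with the log size factor of the library at 0.68 and 0.71, those of Apoa4 at 0.086.

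Likeness was read among 1468 tested genes with a range of at least 1 log2 unit and no predicted or clone name. The 5 whose 8 group means were most like Apoa4 by Pearson's r were Ifih1 (0.945), Pgm3 (0.942), Oas1a (0.939), Irf7 (0.939) and Ifit3 (0.938). They head a ranking over 8 points, given as a description. Irf7 averaged 25.3 TPM in RD LFPKO, 11.9 TPM in RD LFKO and 23.6 TPM in RD LPKO livers, against 8.76 TPM in RD WT livers. The 5 most like Apoa2 were Hsd17b7, Cyb5b, Cmbl, Fam89a and Tgds (0.963 to 0.972), and the 5 most like Apoc2 were Wfdc17, Ighv3-6, Trpc6, Clpx and Wsb1 (0.863 to 0.914).

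The other genes of lipoprotein metabolism were read from 5 lists. The shares of all tested genes called higher are given above, and 3.45%, 0.597% and 2.33% were called lower in RD LFPKO, RD LFKO and RD LPKO livers and 1.47%, 0.73% and 1.13% in HFD LFPKO, HFD LFKO and HFD LPKO livers, against WT. Among 15 tested other apolipoprotein genes, 3 rose in RD LFPKO, 1 in RD LFKO and 2 in RD LPKO livers, where 1 fell. On HFD, 4 rose in LFKO and 1 in LPKO livers and none was called by limma in LFPKO livers. Apol9a, an apolipoprotein L family gene, was at 51.0 to 57.9 TPM in RD LFPKO and 46.2 to 71.5 TPM in RD LPKO livers, against 7.08 to 18.04 TPM in RD WT livers (2.09 ± 0.27 and 2.11 ± 0.27, limma adjusted p 4.00e-05 and 5.39e-05). Its neighbour in the family Apol9b rose by 1.25 and 1.56 (limma adjusted p 4.13e-04 and 5.61e-05), and since both genes are near-identical copies, the division of reads between them is uncertain. The 4 HFD LFKO calls (Apoh, Apool, Apol7a and Pon1) were lost under both scalings, under which 0 genes were called higher and 2 lower. The RD LFKO call was Apoo, a mitochondrial protein gene (0.45 ± 0.11, limma adjusted p 0.0497), and it was lost under 11 of 13 alternatives. After median-of-ratios scaling, 3 rose in RD LFPKO, 2 in RD LFKO, 4 in RD LPKO, 1 in HFD LFPKO and 2 in HFD LPKO livers, and 1 fell in RD LPKO livers. Without Mup and mt transcripts, 3 rose and 1 fell in RD LFPKO, 0 were called in RD LFKO, 4 rose and 1 fell in RD LPKO, 2 rose and 1 fell in HFD LFPKO, and 0 were called in HFD LPKO livers by limma.

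Of 29 tested genes of VLDL assembly and secretion, none rose on RD in any knockout on the deposited scale, and 1 rose in RD LFKO livers after median-of-ratios scaling. Of these 29, 2 fell in RD LFPKO, 0 in RD LFKO and 1 in RD LPKO livers, where 1 rose and 1 fell under both scalings. Plin2, which coats lipid droplets, fell in RD LPKO livers, to 160 TPM, against 383 TPM in RD WT livers (-1.26 ± 0.27, limma adjusted p 0.00586). On HFD, 0 were called in LFPKO by limma, 7 rose in LFKO, and 4 rose and 1 fell in LPKO livers, where 3 rose without Mup and mt transcripts. The list's median log2FC in HFD LFKO livers was 0.30, beside 0.21 over all tested genes, and under both scalings 1 of the 7 calls was left, that of Ces1d, a triglyceride hydrolase of the endoplasmic reticulum. Ces1d was at 400 TPM in HFD LFKO livers, against 137 TPM in HFD WT livers (1.55 ± 0.37, limma adjusted p 0.0130), and it was lost without HFD WT replicate 2 (limma adjusted p 0.103) or HFD LFKO replicate 3 (limma adjusted p 0.0846). In HFD LPKO livers Aadac, a microsomal lipase, rose by 0.64 ± 0.13 (limma adjusted p 0.00502) and Sort1, a sorting receptor for apolipoprotein B, fell by 0.93 ± 0.19 (limma adjusted p 0.00556).

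Of 11 tested genes of plasma lipolysis and remodelling, 2 fell in RD LFPKO and 2 in RD LPKO livers, and the same pair was called in each, Lipg, which encodes endothelial lipase, and Pltp, which transfers phospholipid. Without RD WT replicate 2 all 4 of these calls were lost (limma adjusted p 0.0789 and 0.142 for Lipg in LFPKO and LPKO livers, and 0.0650 and 0.0841 for Pltp), and at least 1 of them was lost without each other library but RD LFPKO replicate 2. After median-of-ratios scaling, 1 rose and 2 fell in RD LFPKO and 1 rose and 1 fell in RD LPKO livers. On HFD, 2 fell in LFPKO, 2 rose in LFKO and 2 rose in LPKO livers, against 0 rising and 1 falling in LFKO and 2 rising and 1 falling in LPKO livers after median-of-ratios scaling. Without Mup and mt transcripts, 1 rose and 3 fell in RD LFPKO, 1 rose and 2 fell in RD LPKO, 0 rose and 1 fell in HFD LFKO, and 2 rose and 2 fell in HFD LPKO livers. Lipg was at 0.918 TPM in HFD LFPKO livers, against 3.54 TPM in HFD WT livers (-1.18 ± 0.22, limma adjusted p 0.00204). Angptl4, a lipoprotein lipase inhibitor and PPARα target, was at 14.4 TPM in HFD LFPKO livers, against 66.4 TPM in HFD WT livers (-2.30 ± 0.50, limma adjusted p 0.00956). The Angptl4 call was lost without HFD WT replicate 2 or HFD LFPKO replicate 2 or 3 (limma adjusted p 0.0682, 0.0662 and 0.0615).

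Of 11 tested lipoprotein receptors and cholesterol exporters, 4 fell in RD LFPKO livers, 1 in RD LFKO livers and 4 in RD LPKO livers, and none rose by limma. After median-of-ratios scaling 5 fell in RD LFPKO and 5 in RD LPKO livers, and without Mup and mt transcripts 4 and 5. Abcg8, which with Abcg5 exports cholesterol into bile, fell by 0.88 ± 0.16 in RD LFPKO and by 1.21 ± 0.16 in RD LPKO livers (limma adjusted p 0.00138 and 7.37e-05). Scarb1, the HDL receptor, fell in RD LFPKO livers by 0.72 ± 0.11 (limma adjusted p 3.24e-04). It also fell in LFKO livers on RD (-0.56 ± 0.11, limma adjusted p 0.0106) and on HFD (-0.51 ± 0.11, limma adjusted p 0.00899). In RD LPKO livers Scarb1 was not called (-0.32 ± 0.11, limma adjusted p 0.102). On HFD, 0 rose and 2 fell in LFPKO, 3 rose and 1 fell in LFKO, and 0 rose and 1 fell in LPKO livers. After median-of-ratios scaling 0 rose in any of the 3, while 4 fell in LFPKO, 1 in LFKO and 4 in LPKO livers. Without Mup and mt transcripts 3 fell in LFPKO, 1 rose and 1 fell in LFKO, and 5 fell in LPKO livers. Abcg8 averaged 29.4 TPM in HFD LFPKO livers, against 53.3 TPM in HFD WT livers (-0.86 ± 0.16, limma adjusted p 0.00236), and its partner Abcg5 averaged 23.5 TPM in HFD LFPKO livers, against 43.9 TPM in HFD WT livers (-0.94 ± 0.21, limma adjusted p 0.0115). The Abcg5 call was lost without HFD WT replicate 1 or HFD LFPKO replicate 1 or 2 (limma adjusted p 0.0715, 0.0623 and 0.0719), and both were lost when the compared groups were fitted alone (limma adjusted p 0.112 for Abcg8 and 0.217 for Abcg5).

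The list of 28 tested transcriptional regulators of apolipoprotein genes holds Foxo1 and Ppara themselves. Both were kept in all counts of this list. Of the 28, 2 rose and 4 fell in RD LFPKO livers, 1 fell in RD LFKO livers, and 1 rose and 2 fell in RD LPKO livers. The 1 lower call in RD LFKO livers was Foxo1 itself, the gene labelled as deleted. Foxo1 was also 1 of the 4 lower calls in RD LFPKO livers. Creb3l3, a factor cleaved at the endoplasmic reticulum that is known to activate Apoa4 in mouse liver, fell to 125 ± 3.95 and 116 ± 15.2 TPM in RD LFPKO and RD LPKO livers, against 189 ± 8.24 TPM in RD WT livers (SD, n = 3; limma adjusted p 0.00634 and 0.00178). It was at 184 ± 6.96 TPM in RD LFKO livers. On HFD, Creb3l3 was not called lower by limma in LFPKO livers, where Apoa4 had its highest mean. In HFD LFKO livers it was at 157 TPM, against 149 TPM in HFD WT livers (limma adjusted p 0.768). The HFD LPKO value is not given here, and the part of Creb3l3 in the Apoa4 values was not tested. On HFD, 1 rose and 1 fell in LFPKO, 3 rose and 1 fell in LFKO, and 5 rose and 2 fell in LPKO livers. The 1 lower call in HFD LFPKO and in HFD LFKO livers was again Foxo1. Srebf2, a regulator of cholesterol synthesis, rose in HFD LPKO livers by 0.84 ± 0.16 (limma adjusted p 0.00297). Ppara itself was called higher in HFD LPKO livers, at 84.3, 87.3 and 70.9 TPM, against 47.6, 44.2 and 37.1 TPM in HFD WT livers. This is the whole-gene value that does not check the PPARα label. After median-of-ratios scaling, 3 rose and 6 fell in RD LFPKO, 2 fell in RD LFKO, 1 rose and 3 fell in HFD LFPKO, 1 rose and 1 fell in HFD LFKO, and 6 rose and 2 fell in HFD LPKO livers. Without Mup and mt transcripts, 2 rose and 5 fell in RD LFPKO, 2 fell in RD LFKO, 2 rose and 3 fell in HFD LFPKO, 1 rose and 1 fell in HFD LFKO, and 4 rose and 2 fell in HFD LPKO livers. Over the 5 lists and 19 comparisons, 48 of 221 calls were lost under no alternative run.

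**Figure D5:**
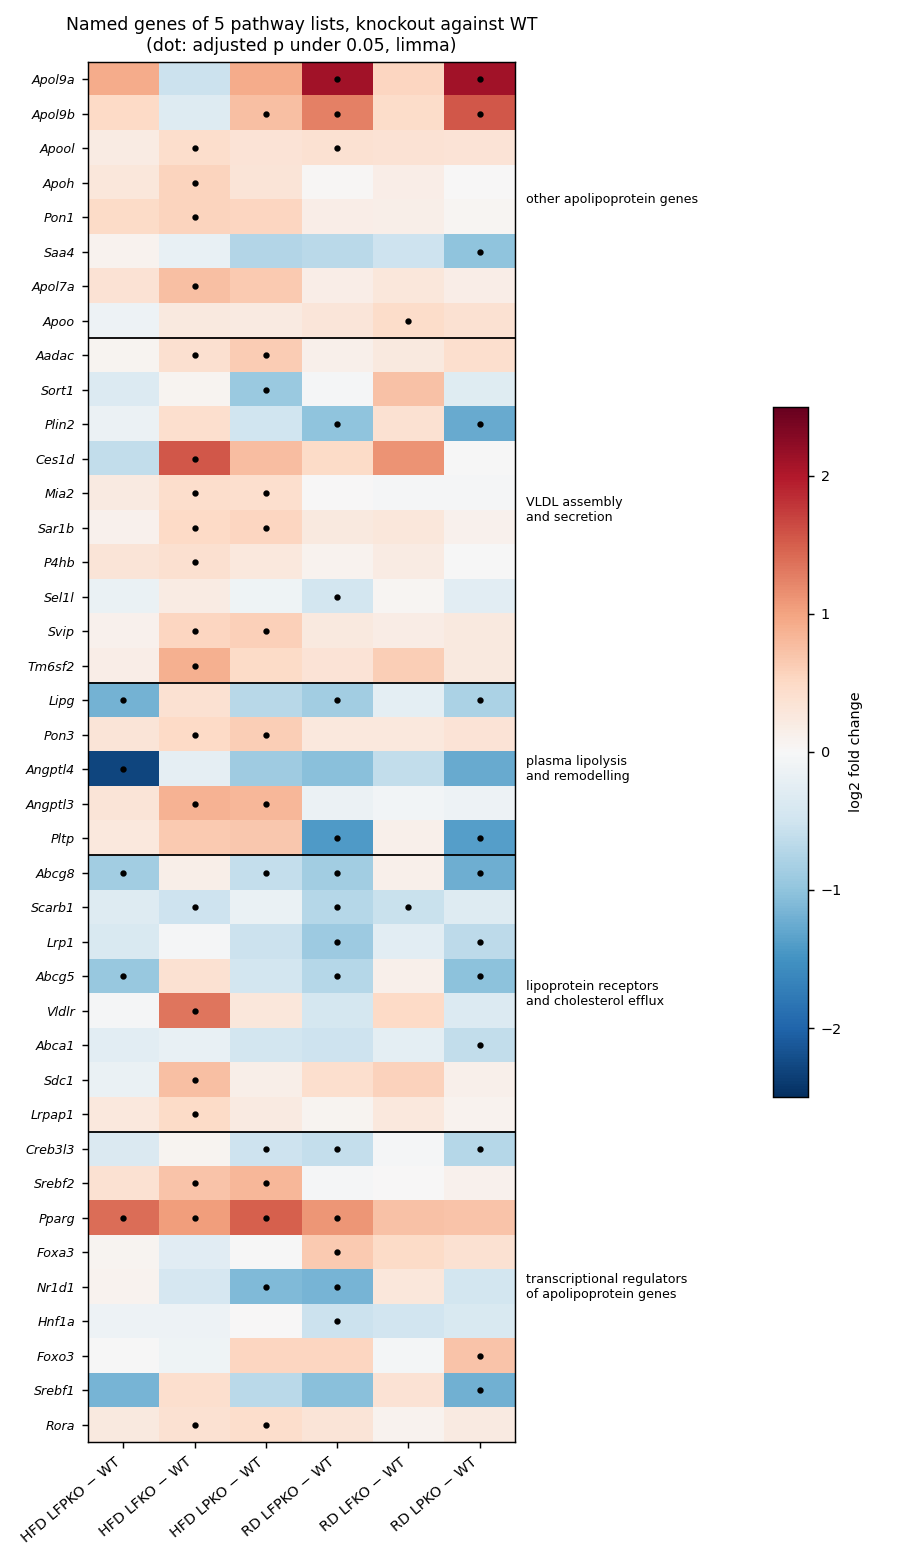
log2FC against WT of the same diet for the genes of 5 lists chosen by the naming rule, without Foxo1 and Ppara, as colours from blue (lower) to red (higher), with a dot for limma adjusted p under 0.05. Abcg8 carries a dot in 4 of 6 columns, all of them lower, and Apol9a is highest in RD LFPKO and RD LPKO, at 2.09 and 2.11.

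Lists were also read in HFD WT against RD WT livers. Of 29 genes of VLDL assembly and secretion, 14 fell and 0 rose, where 29.8% of all tested genes were called lower, with a list median of -0.35 beside -0.29 over all tested genes, and after either scaling 1 fell and 1 rose. P4hb, a subunit shared by the Mttp complex and prolyl hydroxylase, was at -0.35 on the deposited scale (limma adjusted p 0.0277) and at 0.02 after either scaling. The P4hb call was also lost without RD WT replicate 2 or 3 or HFD WT replicate 2 or 3 (limma adjusted p 0.102, 0.0718, 0.138 and 0.0586). Of 11 receptors and exporters, 0 rose and 3 fell, against 3 rising and 0 falling after either scaling, under which 10 and 12 of the list were tested. Between RD groups, Kupffer cell markers, of a cell type that is another source of Apoe, summed to 79.1 to 149 TPM in RD LFPKO, 119 to 168 TPM in RD LFKO and 88.3 to 123 TPM in RD LPKO livers, against 156 to 251 TPM in RD WT livers, with 1 of 10 markers called lower in each. Their part in the Apoe values was not tested.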

How the data were processed

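Liver RNA of 24 samples was prepared with Trizol and a stranded mRNA kit, per the labels' protocols. The authors deposited gene-level TPM, with kallisto and the builds GRCm38 and mm10 named in the submitters' processing notes. No kallisto version or annotation was given in the sources used here. TPM keeps no depth. A row without a gene name held 0.0104% to 0.0250% of TPM and was left out. Genes with a mean of at least 1 TPM over 24 libraries were tested on log2(TPM + 1), which understates changes of low genes, with limma 3.58.1 (limma-trend, R 4.3.3). A single fit on 8 group means with 16 residual degrees of freedom gave 19 comparisons, each with Benjamini-Hochberg adjustment over 10551 genes. Other work used Python 3.11.15 with pandas 2.3.3 and matplotlib 3.10.9. The fit was tested on simulated data.

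The 10 genes and all lists were chosen with earlier results of these data known. Named list genes were up to 4 per list with the smallest adjusted p in knockouts against WT, and any called gene. Some genes of the receptor list are not reported here. The splits of 12 against 12 and 18 against 6 libraries, and their scalings, were chosen after the values were seen. The alternatives tried were omission of each library in turn, a block for the replicate number, a fit restricted to the groups compared, median-of-ratios scaling, removal of Mup and mt transcripts, and a pseudocount of 0.1. The filter was also dropped or raised to 5 TPM.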

Additional observations from a re-analysis of the deposited data

Results flagged for a closer look

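On HFD, the effect of the PPARα deletion on Apoa5 and Apoa2 differed with the FoxO1 state, by the interaction term of the limma fit. The departure from additivity was -1.15 for Apoa5 and -0.94 for Apoa2 on the log2 scale. Neither passed after median-of-ratios scaling or without Mup and mt transcripts (limma adjusted p 0.0559 and 0.0560 for Apoa5, 0.0973 and 0.0938 for Apoa2).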

How the results depend on the processing

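Among the 10 genes, 12 calls of knockouts against WT became 7 when only the compared groups were fitted and 7 to 16 when 1 library was left out. Both scalings lost Apoa5 and Apof in HFD LFKO livers and gained Apoc2 as lower in each RD knockout. The 2 calls of LFPKO against single knockouts became 5 without Mup and mt transcripts and 2 to 5 when 1 library was left out. The 8 diet calls became 5 with no filter, 5 with the compared groups alone and 5 to 10 when 1 library was left out. Both scalings exchanged diet calls, whatever their number. The lower calls of Apoa5 and Apob in WT livers and of Apoa2, Apoa5 and Apoc3 in LFPKO livers were lost under both. Apoa1 was then called higher on HFD in WT, LPKO and LFPKO livers, and Apof in WT livers. No interaction was called, against 0 to 3 when 1 library was left out. The 2 departures from additivity became 1 with no filter, 0 after median-of-ratios scaling, 0 without Mup and mt transcripts, 0 with the compared groups alone and 0 to 4 when 1 library was left out. With the replicate block the counts were 12, 2, 8, 0 and 1. The block lost Apoa5 in HFD LFKO against HFD WT livers (limma adjusted p 0.0578) and the HFD departure of Apoa2 (limma adjusted p 0.0511), and it gained Apoc2 in RD LPKO against RD WT livers (limma adjusted p 0.0330). Same-numbered libraries mostly did not deviate together (84 pairs, median r -0.00437, range -0.230 to 0.387, 12 over 0.1), so the numbers were not taken to pair samples. The highest values were between HFD LFKO and HFD LFPKO livers, at 0.387 for replicate 3 and 0.319 for replicate 1, with 0.0932 for replicate 2. A pairing of these groups alone was not tested. No value of the 10 genes changed sign where it was called. Causes of these changes were not tested, and depth is unknown.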
